A study of Mus musculus with 4 samples.

Results

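Cajal-Retzius cells of the mouse rostral neocortex at E15.5 were picked out of 4 single-cell RNA libraries by their own transcripts, and 105 were found among 28672 kept barcodes. A member had at least 3 unique molecular identifiers (UMIs, each standing for 1 captured transcript) of Reln and a UMI of at least 2 of the 6 genes Trp73, Lhx1, Lhx5, Calb2, Ebf3 and Cacna2d2. It also had no more than 1 UMI of Gad2, a marker of GABAergic neurons, and no more than 1 UMI in total of Krt8, Cytl1 and Lbhd2, which mark a population found in the i4F-Nes libraries. Replicates 1 and 2 of i4F-Nes gave 31 and 18 members, and those of CTR gave 28 and 28. The levels of these genes therefore describe the choice and are given below without a test.

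The i4F-Nes embryos were Nestin-Cre;i4F;ROSA-STOP-rtTA, and the CTR embryos were i4F;ROSA-STOP-rtTA littermates without the Cre. i4F is a doxycycline-inducible cassette of the reprogramming factors Pou5f1, Sox2, Klf4 and Myc, and the STOP before rtTA, the doxycycline-dependent activator, is removed where Cre is active. Nestin-Cre acts in neural progenitors and their descendants. Doxycycline reached both groups through the dams, whose drinking water held 0.2 mg/ml for 4 days between E10.5 and E14.5, and the rostral cortex was taken at E15.5. Each group had 2 libraries, and the number of embryos in a library is not given in the sources used here. No p-value therefore covers more than library-to-library spread, which may be technical.

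Cajal-Retzius cells are among the earliest-born neurons of the cortex. They come from regions at the border of the cortical sheet, among them the cortical hem, the septum and the pallial-subpallial boundary, and spread through the marginal zone beneath the meninges. There they secrete reelin, the glycoprotein product of Reln, which binds Vldlr and Lrp8 on migrating neurons, acts through the adaptor Dab1 and is needed for the layering of the cortex. Trp73 encodes p73, a relative of p53 that these cells need for their survival, and most of them die after birth.

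The sequences shown here are the stretches of 250 bases upstream of the RefSeq start sites (GRCm38.p6) of Reln, whose product defines these cells, and of Trp73, the rule gene detected in the smallest share of other excitatory neurons. Trp73 has 2 start sites in the table, and 3′ counts cannot tell the transcripts of the 2 apart. Capitals mark matches to the E-box letters CAGCTG, the core bound by proneural and other basic helix-loop-helix factors, and Reln and the inner Trp73 start have none. The coordinates are chr5:22344706-22344955 (minus strand) for Reln, chr4:154139876-154140125 (minus strand) for the upstream Trp73 start, and chr4:154097174-154097423 (minus strand) for the start inside the gene.
Reln: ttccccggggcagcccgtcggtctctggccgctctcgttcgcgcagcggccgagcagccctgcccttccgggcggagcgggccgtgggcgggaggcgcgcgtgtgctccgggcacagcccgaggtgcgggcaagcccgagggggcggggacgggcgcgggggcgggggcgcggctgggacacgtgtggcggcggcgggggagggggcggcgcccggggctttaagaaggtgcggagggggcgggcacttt
Trp73 upstream start: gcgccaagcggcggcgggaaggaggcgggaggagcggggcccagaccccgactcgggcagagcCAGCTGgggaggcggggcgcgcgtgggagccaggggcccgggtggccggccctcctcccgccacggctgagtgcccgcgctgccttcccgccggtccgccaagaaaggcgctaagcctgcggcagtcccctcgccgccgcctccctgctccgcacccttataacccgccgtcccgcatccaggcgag
Trp73 inner start: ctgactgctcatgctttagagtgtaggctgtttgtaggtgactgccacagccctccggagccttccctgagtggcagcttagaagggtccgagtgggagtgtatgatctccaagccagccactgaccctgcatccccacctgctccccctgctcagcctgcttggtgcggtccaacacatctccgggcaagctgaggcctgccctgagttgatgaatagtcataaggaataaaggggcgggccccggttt
G and C made up 80% of the Reln stretch, 77.2% of the stretch before the upstream Trp73 start and 58.4% of that before the inner start. Of the genes at least 2-fold higher in the members than in other excitatory neurons (below), 585 of 744 symbols had an entry, with 784 start sites. CAGCTG was present upstream of 117 of those starts (14.9%), against 13.0% of all 32851 starts in the table. TAATTA, the letters LIM homeodomain factors such as Lhx1 and Lhx5 can bind, was present at 13 (1.66%) against 4.84%. The palindromic EBF motif was present at 8 (1.02%) against 0.779%. Both strands were searched, on which each motif reads the same, and TAATTA and CAGCTG cannot overlap.

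The 4 matrices together held 35255 barcodes and between 94052724 and 153706503 UMIs each. Of 35102 distinct barcode sequences, 153 occurred in 2 libraries, and none of those belonged to a member. The members were deeply sequenced. In i4F-Nes their median UMI count was 25520 (replicate 1) and 14567 (replicate 2), and in CTR 33566 and 26547.5, while the other excitatory neurons had 14977, 12926, 15607 and 12951 in that order. The i4F-Nes replicate 2 members were the fewest and the shallowest. Other excitatory neurons were the 18825 kept barcodes with more neuronal than progenitor transcripts that were not members and had no more than 1 UMI of 5 GABAergic genes and of the 3 Krt8-population genes. Of the 105 members, 100 also passed the neuronal criterion and 9 had doublet scores among the highest of their library.

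Transcripts of other neocortical neurons were present in part of the members. Neurod2 and Neurod6, which mark pallial projection neurons, were summed per 10000 UMIs, and 35 of the 105 members had 0. At least 3 were found in 7 of 31 and 2 of 18 i4F-Nes members and in 9 of 28 and 10 of 28 CTR members, 28 in all, or 22.6%, 11.1%, 32.1% and 35.7%. Both CTR libraries lay above both i4F-Nes libraries, and the difference of -17.1 percentage points had an exact two-sided permutation p of 0.333, the smallest that 2 against 2 libraries allow. In the other excitatory neurons 96.1% to 99.7% of barcodes reached 3. The 28 members were deeper than the rest in all 4 libraries, with median UMIs of 34823 against 23954.5 and 16196 against 14567 in i4F-Nes and of 54802 against 32298 and 45075.5 against 24384.5 in CTR. Of the 28, 12 had all 6 partner genes and 8 had high doublet scores. Across the 105 cells, which share 4 libraries and differ in depth, the sum had a Spearman rho of 0.338 with total UMIs and of -0.329 with the Reln share of UMIs. The limit of 3 per 10000 was chosen after seeing the data, and whether these barcodes hold more than 1 cell was not tested. The shares, the counts of called genes and some gene levels that rest on them are given with and without them, and other values with them only.

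**Figure D1:**
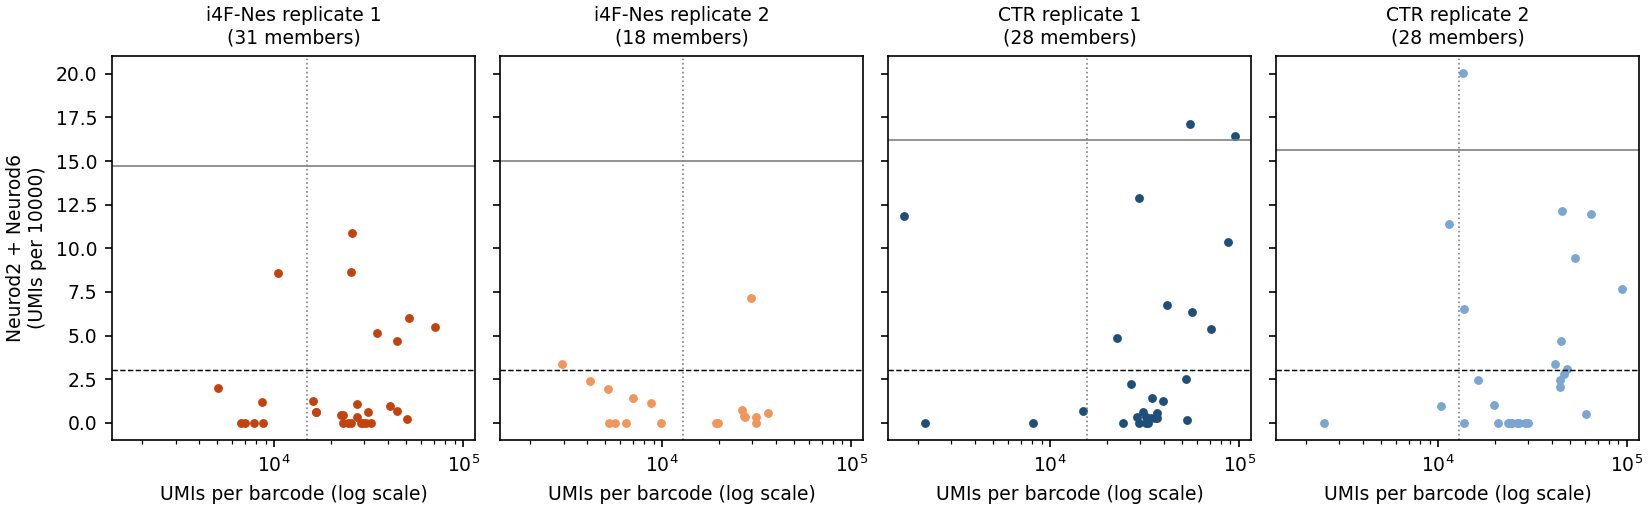
Each point is 1 member, with its total UMIs (log axis) against the summed UMIs of Neurod2 and Neurod6 per 10000 UMIs, by library; the dashed line marks 3, the grey solid and dotted lines mark the median sum and the median UMIs of the other excitatory neurons of that library. Most members lie near 0, and 28 of 105 lie at or above 3.

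The members were a rare class in every library. They made up 0.382% of kept barcodes in i4F-Nes replicate 1 (exact Clopper-Pearson 95% interval 0.259% to 0.541%) and 0.260% in replicate 2 (0.154% to 0.410%). They made up 0.434% in CTR replicate 1 (0.288% to 0.626%) and 0.391% in replicate 2 (0.260% to 0.565%). Every interval overlapped the others, and these intervals cover counting error only. The mean was 0.321% ± 0.0862 in i4F-Nes and 0.412% ± 0.0302 in CTR (SD, n = 2 each), a difference of -0.0918 percentage points (exact two-sided permutation p = 0.333, the smallest possible over 6 splits). Both i4F-Nes shares were below both CTR shares. As a share of neurons the means were 0.482% ± 0.0478 and 0.545% ± 0.0449 (SD, n = 2 each), and the groups overlapped (exact permutation p = 0.667). In an alternative, barcodes under 5000 UMIs were dropped and the rest thinned to 5000 before the rule was applied. This left a difference of -0.00106 percentage points in kept barcodes and turned that among neurons to 0.0659 (exact permutation p = 1 and 0.333). It gave 33 and 16 members in i4F-Nes and 21 and 24 in CTR. Thinning also eased the upper limits on Gad2, Krt8, Cytl1 and Lbhd2, so these differences do not isolate depth. Without members at or above 3 neocortical UMIs per 10000 the shares of kept barcodes were 0.295% and 0.231% in i4F-Nes and 0.294% and 0.251% in CTR.

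**Figure D2:**
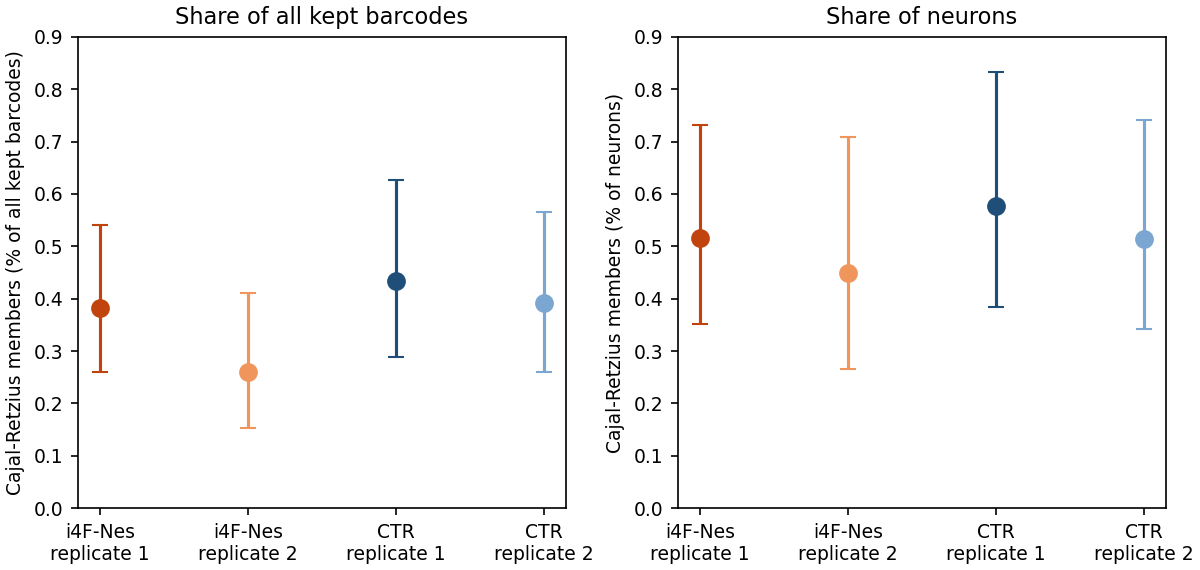
Members as a percentage of kept barcodes (left) and of neurons (right) in each library, with exact 95% binomial intervals. The 4 shares of kept barcodes run from 0.260% to 0.434% and their intervals overlap.

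The genes of the rule separated the members widely from other neurons. Reln, on chromosome 5 (21884454 to 22344702, minus strand, GRCm38), was at 4183 to 5763 CPM (UMIs per 1e6 UMIs of the summed cells) in the members of the 4 libraries. Per member, the median Reln count was 132 and 47 UMIs for i4F-Nes and 147 and 117 for CTR, with a range of 3 to 637, while the median of other excitatory neurons was 0 in all 4. Trp73, on chromosome 4 (154056253 to 154140208, minus strand), was found in 92 of the 105 members (87.6%) and in 31 of 18825 other excitatory neurons (0.165%). After thinning to 5000 UMIs the range over libraries was 37.0% to 64.5% of members and 0% to 0.0752% of other excitatory neurons. Calb2, the calcium-binding protein calretinin, was found in 99 members, the LIM homeodomain factors Lhx5 and Lhx1 in 93 and 70, the calcium channel subunit gene Cacna2d2 in 98 and the transcription factor gene Ebf3 in 87. All 6 partner genes were detected together in 60 members, 5 in 20, 4 in 10, 3 in 9 and the minimum of 2 in 6.

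The edges of the rule were thin. Of the members, 81 had at least 20 Reln UMIs, 12 had 6 to 19 and 12 had 3 to 5, of which 5 had exactly 3. Just outside it, 9 barcodes passed every other criterion with 2 Reln UMIs, 20 with 1 and 283 with 0. On the partner side, 43 barcodes with enough Reln had only 1 partner gene and 230 had none. The Gad2 limit removed 1 barcode. The Krt8 limit removed 10, all from i4F-Nes libraries (8 and 2). Those 10 had a median of 69868.5 UMIs and 6.5 Reln UMIs (range 3 to 367), 7 of them were among the highest doublet scores, and 3 had a UMI of Ndnf. With them kept, the difference in the share of neurons turned to 0.0288 percentage points.

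Against other excitatory neurons, the members carried a large set of genes of their own and lacked much of the projection neuron programme. Of 9772 genes with at least 10 CPM in either set and outside the rule, 745 (7.62%) were at least 2-fold higher in all 4 libraries and 437 (4.47%) at least 2-fold lower. Log2 ratios here and below have 0.5 CPM added on both sides, and no test is given because the members were chosen on this contrast. Ndnf, a secreted factor also known from layer 1 neurons, led the list. Its levels were 647 and 989 CPM in i4F-Nes members and 583 and 888 CPM in CTR members, against 0.0787 to 0.148 CPM in other excitatory neurons, a log2 ratio of at least 9.81 in each library. It was detected in 96 of 105 members and 20 of 18825 other excitatory neurons. Car10, a carbonic anhydrase-related protein, was at 573, 508, 484 and 485 CPM, in the same order, and below 1 CPM in other excitatory neurons. The long noncoding RNA Snhg11 was at 533, 610, 449 and 584 CPM. Nr2f2, the nuclear receptor COUP-TFII, was at 917, 805, 645 and 684 CPM against 0.543 to 1.31 CPM. In all 4 genes the lowest member library lay far above the highest library of the other neurons.

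**Figure D3:**
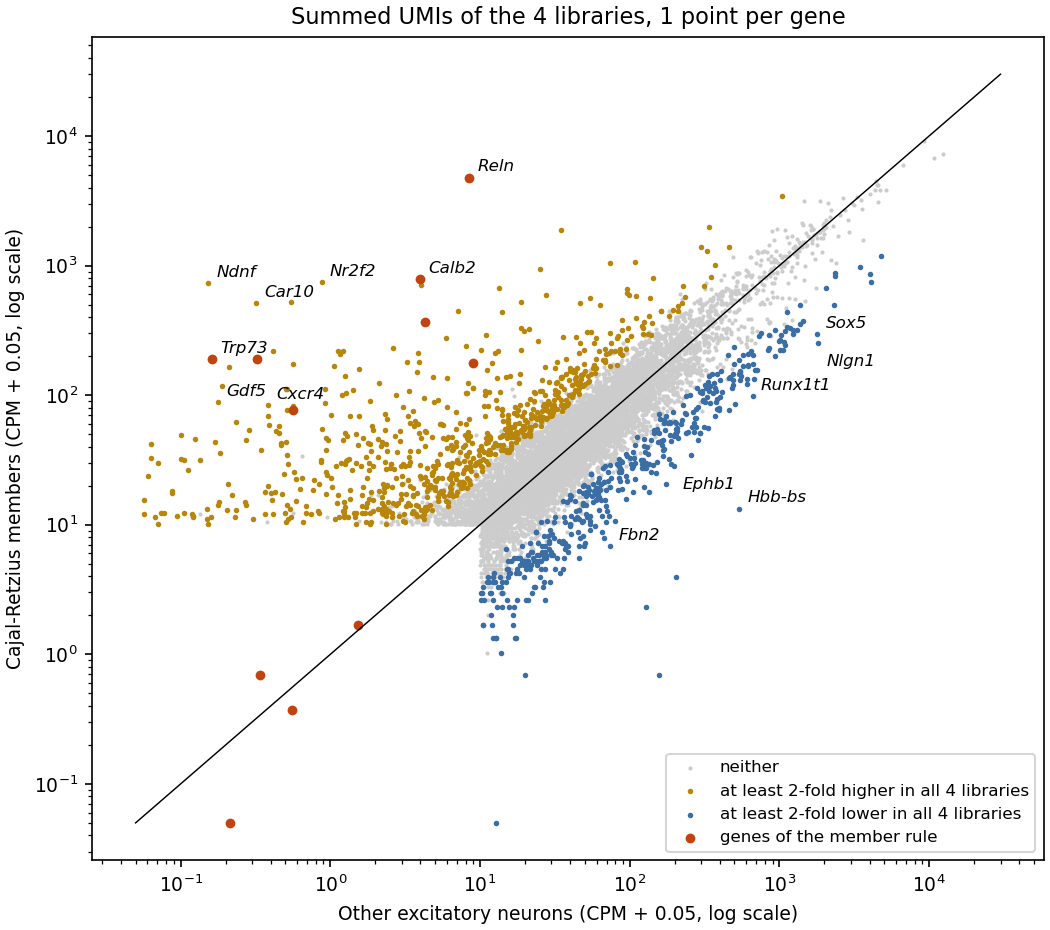
Each point is 1 gene, with its CPM in summed other excitatory neurons (horizontal) and in summed members (vertical), both log axes with 0.05 CPM added. Genes with at least 10 CPM in either set are drawn with the genes of the rule, and Ndnf, Car10 and Nr2f2 stand near 0 on one side and above 500 CPM on the other.

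Genes for secreted proteins were prominent in the profile, while of the guidance genes more were lower than higher. Of 39 listed genes for ligands and matrix proteins 18 were counted, of which 9 were higher in all 4 libraries and 1, Fgf13, lower. Over all counted genes, for comparison with this list and the guidance list below, 7.62% were higher and 4.47% lower. Their median log2 ratio was 1.96 against 0.05 over all counted genes. Genes low in other excitatory neurons were counted only through the members. Cxcl12, the chemokine that the meninges also make, was at 382 and 547 CPM in i4F-Nes members and 272 and 287 CPM in CTR members, against 9.23 to 31.3 CPM. Its receptor gene Cxcr4 was at 90.3, 135, 63.2 and 84.0 CPM against 0.164 to 0.458 CPM, so ligand and receptor were found in the same cells' sums. Wnt7b ranged from 286 to 384 CPM against 70.8 to 118 CPM, and Wnt4 from 41.2 to 52.8 CPM against 0.148 to 0.302 CPM. Gdf5, a ligand of the BMP family, was at 73.1 to 109 CPM and Vegfa, the vascular growth factor, at 39.3 to 49.5 CPM. Pnoc, the nociceptin precursor, varied most among these, with 137 and 458 CPM in i4F-Nes members and 70.8 and 120 CPM in CTR members. Ramp1, a co-receptor of the calcitonin receptor family, was at 129, 270, 48.8 and 133 CPM. Of 31 counted migration and contact genes, 6 were higher, among them the plexin gene Plxnd1 (90.9 to 129 CPM against 0.793 to 1.71), Sema6a (145 to 262 against 12.6 to 24.8) and the netrin receptor gene Unc5b (47.9 to 66.0 against 1.52 to 3.35). In the same list 10 were lower, among them Epha4, Epha5, Ephb1 and Nrp1, receptors that guide growing axons. The median log2 ratio of that list was -1.23.

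Dab1, the adaptor on the receiving side of the reelin pathway, was lower in the reelin-secreting cells. It was at 181 and 72.6 CPM in i4F-Nes members and 291 and 304 CPM in CTR members, against 1007 to 1146 CPM in other excitatory neurons. The receptor genes Vldlr and Lrp8 were at 3.30 to 19.1 and 42.9 to 95.7 CPM, against 28.0 to 39.2 and 110 to 170 CPM, lower in all 4 libraries though not by 2-fold in each. Of 26 counted genes of the pathway beside Reln, 2 were lower by the 2-fold measure (Dab1 and the cadherin gene Cdh2) and 1, Cdk5r2, was higher, beside 4.47% lower and 7.62% higher over all counted genes.

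Transcription factors of the medial and dorsal edges of the cortex were shared features that the rule had not used. Of 21 genes of a list for the medial wall, hem and septum, 13 were counted. Of these, 11 were at least 2-fold higher in all 4 libraries and 0 lower, beside 7.62% and 4.47% over all counted genes. Their median log2 ratio was 4.21. Genes low in other excitatory neurons were counted only where the members reached 10 CPM, which favours the higher side in these counts. The zinc finger gene Zic1 was at 239 and 185 CPM in i4F-Nes members and 156 and 156 CPM in CTR members, against 1.40 to 4.96 CPM. Zic4 was at 50.7 to 86.6 CPM, Zic2 at 85.8 to 120 CPM and Zic5 at 59.4 to 91.7 CPM. Emx2, a patterning factor of the cortical primordium, was at 316, 379, 316 and 279 CPM against 13.8 to 22.6 CPM. Dmrt3 and Dmrta2, factors of the dorsomedial telencephalon, were at 33.8 to 56.1 and 49.1 to 90.3 CPM against 0.744 to 4.58 and 9.65 to 19.8 CPM. Lmx1a, which marks the hem, and Rspo1, a secreted Wnt agonist, were low but above other excitatory neurons, at 9.82 to 13.4 and 6.70 to 20.7 CPM. The hem ligand gene Wnt3a and the septal ligand genes Fgf8 and Fgf17 had 0 UMIs in the members. Of 19 counted genes known from Cajal-Retzius cells but outside the rule, 11 were higher, 2 lower (Lmo3 and Slit1) and the median log2 ratio was 4.02. They included Nhlh2, a basic helix-loop-helix factor (612 to 745 CPM against 4.97 to 26.9), Barhl2, a homeodomain factor (51.3 to 92.3 against 0.0273 to 0.623), Lhx9 (21.1 to 29.7 against 0.503 to 3.14) and Ebf2 (75.9 to 152 against 0.0820 to 6.86). The Krt8 population of the i4F-Nes libraries, described below, shared some of these. It had Nhlh2 at 299 to 453 CPM, Ebf2 at 423.5 to 608, Emx2 at 104.5 to 157 and Zic1 at 36.5 to 44.6. Barhl2 was at 2.29 to 4.21 CPM and Lhx9 at 5.51 to 7.30 CPM there. Ebf1 missed the 2-fold measure in i4F-Nes replicate 2, where other excitatory neurons had 66.2 CPM, against 3.14 and 2.34 CPM in the CTR libraries.

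**Figure D4:**
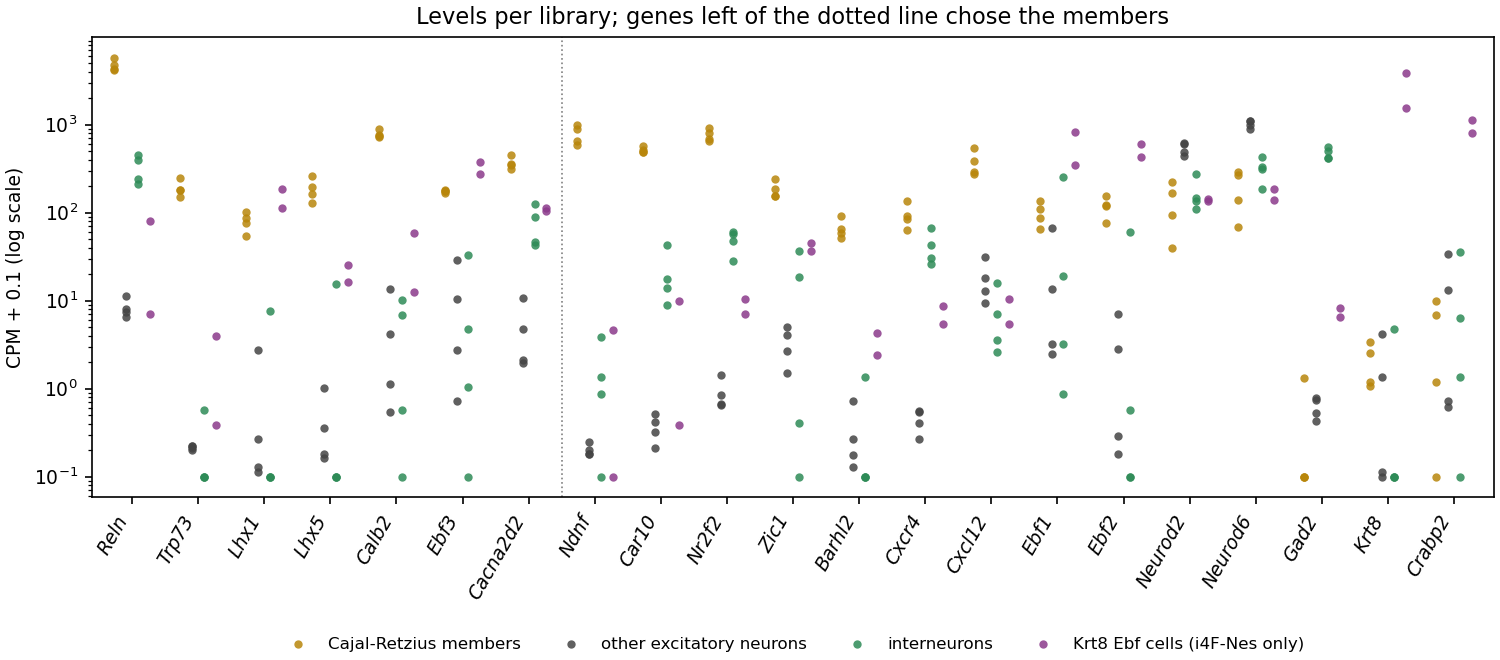
CPM plus 0.1 (log axis) of 21 genes in summed members, other excitatory neurons, interneurons and Krt8 Ebf cells, 1 point per library; the 7 genes left of the dotted line chose the members and Gad2 and Krt8 were used to exclude. Ndnf, Car10, Nr2f2, Barhl2 and Cxcl12 are far higher in members than in the other 3 sets.

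Projection neuron genes were low. More upper-layer genes were called lower without the members at or above 3 Neurod2 and Neurod6 UMIs per 10000. Of 10 counted neocortical excitatory genes 7 were at least 2-fold lower in all 4 libraries, of 9 upper-layer genes 5 and of 9 deep-layer genes 7, and none was higher. Over all counted genes 4.47% were lower and 7.62% higher. Neurod6, a basic helix-loop-helix factor of differentiating pallial neurons, was at 139 and 69.3 CPM in i4F-Nes members and 290 and 266 CPM in CTR members against 883 to 1097 CPM. Sox5, a factor of deep-layer neurons that was not used in the sum, was at 326, 95.6, 358 and 268 CPM in all members, in the same order of libraries. In members under 3 Neurod2 and Neurod6 UMIs per 10000 Sox5 was at 14.4, 88.6, 17.1 and 59.6 CPM, and in other excitatory neurons at 1418 to 2076 CPM. In that restricted set 7 of 10, 8 of 9 and 8 of 9 genes of the 3 lists were lower, where the first list holds Neurod2 and Neurod6, which define the set. The other 2 lists mark neurons that also carry Neurod2 and Neurod6, so their counts are not independent of that choice. Tbr1, shared by Cajal-Retzius and deep-layer neurons, was at 155 to 220 CPM against 95.8 to 112 CPM, and Nfia and Nfib differed by less than 2-fold in all 4 libraries.

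Transmitter and excitability genes went in both directions. Nlgn1, a postsynaptic adhesion protein, was lower, at 307, 79.2, 212 and 307 CPM against 1560 to 1961 CPM. Of 35 counted transmitter and excitability genes 5 were higher and 8 lower, with a median log2 ratio of -0.02. Over all counted genes 7.62% were higher and 4.47% lower, and genes low in other excitatory neurons were counted only through the members. The glutamate receptor genes Gria2 and Grin2b were lower (188 to 429 and 95.6 to 187 CPM against 926 to 1092 and 313 to 483), and Grin3a was higher (23.1 to 58.9 CPM against 0.346 to 3.22). The calcium channel subunit gene Cacna2d3 was at 198 to 398 CPM against 37.4 to 62.9 CPM. Slc17a6, the vesicular glutamate transporter VGLUT2, was at 135, 204, 145 and 175 CPM against 88.7 to 95.0 CPM. The vesicular GABA transporter gene Slc32a1 had 0 UMIs. Of 12 counted pan-neuronal genes, Gap43, a growth cone protein, was higher at 1681 to 2840 CPM against 246 to 468 CPM, and the migration-linked gene Dcx was lower at 69.3 to 237 CPM against 463 to 549 CPM.

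Genes of survival and the p53 pathway were of interest because p73 shares targets with p53. Of 17 counted p53 target genes 5 were at least 2-fold higher in all 4 libraries and 1, Plk2, lower, beside 7.62% and 4.47% over all counted genes. Their median log2 ratio was 0.46 against 0.05 over all counted genes. Genes low in other excitatory neurons, here Cdkn1a, Ccng1 and Phlda3, were counted only through the members, which favours the higher side. The cell-cycle inhibitor gene Cdkn1a was at 92.7 and 62.7 CPM in i4F-Nes members and 59.3 and 32.7 CPM in CTR members, against 4.31 and 8.23 and 0.816 and 1.61 CPM. In the Krt8 population described below it was higher still, at 401 to 428 CPM. Aen, an apoptosis-linked nuclease, was at 209, 201, 145 and 126 CPM against 38.0 to 41.3 CPM. Ccng1 was at 20.1 to 33.8 CPM against 7.22 to 9.22 CPM. Phlda3, a repressor of Akt signalling, was at 19.8 to 69.5 CPM against 3.06 to 5.65 CPM. Diablo, a mitochondrial protein released in apoptosis, was at 221 to 325 CPM against 33.3 to 41.2 CPM, the single gene of 16 counted in the cell death list that was higher. Bcl2, which protects from apoptosis, and the neurotrophin receptor gene Ntrk3 were lower.

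Markers of progenitors were present in the members, while most fibroblast and endothelial markers were at 0. None of 11 radial glia genes was at 0, and their summed level was 125 to 373 CPM against 207 to 350 CPM in other excitatory neurons. Of 8 intermediate progenitor genes 1, Neurog1, was at 0, and the sum was 139 to 423 CPM against 331 to 648 CPM. Of 11 meningeal fibroblast genes 8 had 0 UMIs, including Col1a1, Col1a2, Col3a1, Dcn and Lum, and the list's summed level of 273 to 547 CPM was nearly all Cxcl12. Of 6 mural cell genes Kcnj8, Abcc9 and Vtn had 0 UMIs, and Rgs5, a regulator of G-protein signalling, was at 91.9 to 110 CPM against 0.221 to 1.58 CPM in other excitatory neurons. Of 7 endothelial genes 4 were at 0 and their sum was 3.27 to 6.10 CPM. The interneuron list summed to 25.6 to 62.2 CPM against 72.1 to 245 CPM in other excitatory neurons, with Dlx2, Dlx5, Dlx6, Sp9, Adarb2 and Slc32a1 at 0. Microglial genes summed to 86.1 CPM in CTR replicate 1, the highest of the 4 libraries, and the lowest library had 0. Haemoglobin genes headed the lower side. Hbb-bs was at 32.9 and 3.30 CPM in i4F-Nes members and 7.66 and 5.46 CPM in CTR members, against 424 to 680 CPM in other excitatory neurons. It was detected in 31 of 105 members and 3812 of 18825 other excitatory neurons (29.5% and 20.2%), and the part of free or mixed red-cell RNA in either set was not tested.

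The members differed from interneurons and from the Krt8 population by different genes. Against 598 interneurons, defined as neurons with at least 2 Gad2 UMIs, 660 of 9946 counted genes were at least 2-fold higher in all 4 libraries (6.64%) and 573 lower (5.76%). Reln itself was found in 275 of the interneurons (46.0%), at 212 to 449 CPM, and Cacna2d2 in 237 (39.6%), whereas Trp73 was found in 1 and Calb2 in 4. Ndnf stood at 0 to 3.75 CPM there and Rgs5 at 0. The Krt8 Ebf cells, neurons with at least 2 UMIs of the 3 Krt8-population genes and with at least 2 of the genes Ebf1, Ebf2 and Ebf3 detected, numbered 269 and 160 in the i4F-Nes libraries and 0 in both CTR libraries, 429 in all. Against them, 1111 of 10337 genes were higher in both i4F-Nes libraries (10.7%) and 1420 lower (13.7%). That population shared some rule genes with the members: Ebf3 was found in 408 of its cells (95.1%), Lhx1 in 269 (62.7%) and Lhx5 in 98 (22.8%). It had Trp73 in 12 (2.80%), Ndnf in 2 (0.466%) and Nr2f2 at 10.4 and 7.02 CPM against 917 and 805 CPM in the i4F-Nes members. Crabp2, a retinoic acid-binding protein of that population, was at 1134 and 809 CPM there and at 9.76 and 0 CPM in i4F-Nes members.

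Several genes were detected in part of the members only. Barhl2 was detected in 76 of 105, Cxcr4 in 78, Ebf2 in 69, Cdkn1a in 56, Ebf1 in 55 and the calcium-binding protein gene Calb1 in 41. Other neurons share some of these genes. Krt8 Ebf cells had Ebf2 in 93.2%, Ebf1 in 80.0% and Cdkn1a in 93.5% of barcodes, above the members' 65.7%, 52.4% and 53.3%, and interneurons had Cxcr4 in 36.5%. Detection moved with depth: at 5000 UMIs the range over libraries was 11.1% to 43.8% for Barhl2 and 3.70% to 31.3% for Calb1. Of the 13 members without a Trp73 UMI, 2 and 4 were in i4F-Nes libraries and 2 and 5 in CTR libraries, with median UMIs of 13599.5, 7853.5, 28482 and 13477, below the median of all members in each library. They were too few in every library to be tested against the other members.

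Few transcripts of Pou5f1, Sox2 and Klf4 were found in the members. Pou5f1 had 2 and 0 UMIs in i4F-Nes members and 1 and 0 in CTR members. Klf4 had 0 and 0 against 0 and 3, and Sox2 1 and 0 against 16 and 9. Myc was at 40.3 and 42.9 CPM in i4F-Nes members and 39.2 and 13.1 CPM in CTR members. A count of 3 would be 3.66 and 9.89 CPM in the i4F-Nes member sums and 2.87 and 3.27 CPM in the CTR sums. Whether cassette transcripts are counted under these symbols is not given in the sources used here, so these values do not check the labels, and neither do they show whether the members had expressed the cassette during induction.

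Between i4F-Nes and CTR members few genes passed the test, all of them lower in i4F-Nes with every library included, and 3 of the 10, Neurog2, Eomes and Insm1, belong to the intermediate progenitor list. edgeR's quasi-likelihood test on summed UMIs called 0 of 8996 genes higher (0%) and 10 lower (0.111%) at an adjusted p under 0.05, and 377 had an unadjusted p under 0.05. In the other excitatory neurons the same test called 0 of 17098 higher or lower (0% each), with 404 at an unadjusted p under 0.05. DESeq2 called 6 lower and 0 higher in the members and 71 higher and 2 lower in the other excitatory neurons, where edgeR called 3 to 117 when 1 library was left out, most of them higher (100 higher and 17 lower without CTR replicate 2). Neither the count in members nor its direction was stable. It was 35 higher and 69 lower without i4F-Nes replicate 1, 13 and 31 without i4F-Nes replicate 2, 1 and 31 without CTR replicate 1, and 9 and 24 without CTR replicate 2. Without the exclusion by Krt8, Cytl1 and Lbhd2 it was 60 higher and 4 lower. It was 1, Neurog2, in the 77 members under 3 neocortical UMIs per 10000 (175 at an unadjusted p under 0.05) and 0 in members with no more than 2.5 times the median UMIs of other excitatory neurons (161).

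Neurog2, the proneural factor of cortical progenitors on chromosome 3 (127633135 to 127635631, plus strand), fell most. It had 2 and 2 UMIs in i4F-Nes members and 99 and 80 in CTR members, or 2.44 and 6.60 CPM against 94.8 and 87.3 CPM. The groups did not overlap, and the log2 fold change was -4.57 ± 0.51 (SE; edgeR adjusted p = 1.79e-05). The CTR transcripts came from few cells, 8 and 5, and 127 of 179 CTR UMIs (70.9%) were in the 19 CTR members with at least 3 neocortical UMIs per 10000. In the members under that limit the levels were 1.80 and 0 CPM against 35.9 and 63.7 CPM, with a log2 fold change of -5.04 and an edgeR adjusted p of 0.00274. This call too rested on few barcodes. In CTR replicate 1 a barcode of 52222 UMIs held 19 of the 21 Neurog2 UMIs. In CTR replicate 2 barcodes of 60867 and 44053 UMIs held 21 and 9 of the 31. Each lay above 2.5 times the median UMIs of other excitatory neurons, the limit under which no gene was called. In the other excitatory neurons Neurog2 was at 68.4 and 34.3 CPM against 133 and 49.4 CPM.

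Eomes, the factor of intermediate progenitors, fell with it. It was at 3.66 and 0 CPM in i4F-Nes members and 47.9 and 32.7 CPM in CTR members, a log2 fold change of -3.84 ± 0.65 (edgeR adjusted p = 0.00732). Its CTR UMIs were in 5 and 6 cells, 55% of them in members at or above the neocortical limit. Under the limit Eomes was at 1.80 and 0 CPM against 25.6 and 43.1 CPM (edgeR adjusted p = 0.133). Largely the same CTR barcodes carried both genes. Those of 70621, 22516 and 52222 UMIs in replicate 1 had 19, 16 and 13 Eomes and 22, 16 and 19 Neurog2 UMIs. Those of 60867 and 48165 UMIs in replicate 2 had 16 and 8 Eomes and 21 and 48 Neurog2 UMIs. The 2 calls are therefore not separate evidence. Insm1, a zinc finger factor of the same progenitors, was at 12.2 and 6.60 CPM against 40.2 and 62.2 CPM (log2 -2.23, edgeR adjusted p = 0.0453). With these 3, the intermediate progenitor list had 3 of 7 tested genes lower and 0 higher, beside 0.111% lower and 0% higher over all genes tested. Its median log2 change was -2.23 against 0.02 over all genes tested. The radial glia list had 6 tested genes, none of which passed and all with a negative log2 change, with a median of -1.24 and a lowest edgeR adjusted p of 0.355, for the Notch target Hes5. The summed level of the radial glia list in members was 224 and 125 CPM in i4F-Nes and 373 and 345 CPM in CTR. That of the intermediate progenitor list was 327 and 139 CPM against 423 and 393 CPM. The part of these transcripts in the other calls was not tested. Sox6, a SoxD-family transcription factor, was at 1.22 and 3.30 CPM against 28.7 and 31.6 CPM (log2 -3.93, edgeR adjusted p = 0.0175). In members under the limit it was at 1.80 and 3.69 against 13.7 and 30.8 CPM. Most of its CTR UMIs lay in barcodes that also held Neurog2. Those of 56476, 52222 and 22516 UMIs in replicate 1 had 9, 7 and 7 of 30 Sox6 UMIs. Those of 60867 and 48165 UMIs in replicate 2 had 13 and 11 of 29. The Sox6 call is therefore not separate evidence either.

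The other 6 genes were more abundant in the other excitatory neurons than in the members of either group. Runx1t1, a transcriptional corepressor, was at 29.3 and 16.5 CPM against 134 and 145 CPM (log2 -2.44, edgeR adjusted p = 0.000289). Tiam2, an activator of Rac, was at 98.8 and 66.0 CPM against 363 and 338 CPM (log2 -2.00, edgeR adjusted p = 0.000958). In these 2 genes the members at or above the neocortical limit held 92.7% and 93.2% of the CTR UMIs. Under the limit Tiam2 was at 10.8 and 44.3 CPM against 13.7 and 80.1 CPM, and those groups overlapped. Meis2, a homeodomain factor, was at 79.3 and 175 CPM against 405 and 514 CPM (log2 -1.87) and Epha4, an ephrin receptor, at 20.7 and 9.89 CPM against 67.0 and 70.9 CPM (log2 -1.96), with edgeR adjusted p of 0.0326 and 0.0338. The noncoding RNA Pantr1 was at 61.0 and 89.0 CPM against 211 and 238 CPM, and the growth factor-binding protein gene Igfbpl1 at 200 and 145 CPM against 533 and 412 CPM. Under the limit the groups overlapped for Meis2 and Epha4 and did not for Pantr1 and Igfbpl1, and none of these 4 passed the test. In the other excitatory neurons Runx1t1 was at 588 to 732 CPM and Tiam2 at 779 to 1250 CPM, and neither was called.

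**Figure D5:**
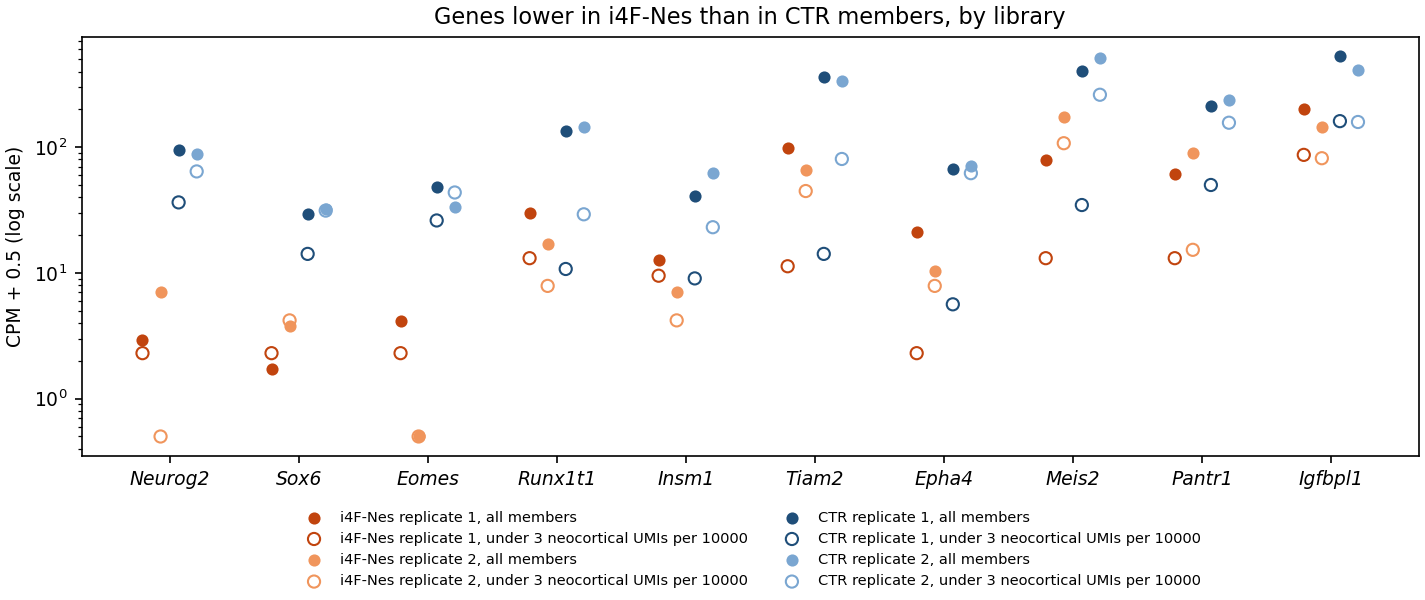
CPM plus 0.5 (log axis) of the 10 genes lower in i4F-Nes members, 1 filled point per library for all members and 1 open point for members under 3 neocortical UMIs per 10000. The filled CTR points lie above the filled i4F-Nes points for every gene shown, while the open points of Runx1t1, Insm1, Tiam2, Epha4 and Meis2 overlap between the groups.

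Genes typical of the members were not among those called. Over all genes tested 0% were called higher and 0.111% lower, so counts of 0 in the short lists below lie near that share. Of 18 tested Cajal-Retzius genes outside the rule 0 were higher and 0 lower, and 14 had a positive log2 change, with a median of 0.27. Ndnf had a log2 change of 0.21 ± 0.31 and Zic1 of 0.50 ± 0.27 (SE; edgeR adjusted p = 1.00 for both). Of 26 tested reelin pathway genes 0 passed, and Dab1 had a log2 change of -1.12 ± 0.31 (edgeR adjusted p = 0.244), while its interaction with other excitatory neurons (below) was -1.21 (edgeR adjusted p = 1.40e-05). Of 15 tested p53 targets 0 passed, with Cdkn1a at 0.84 ± 0.33 (edgeR adjusted p = 0.855). Of 9 tested neocortical excitatory genes 0 passed and 1 had a positive change, with a median of -0.95, and of 8 tested upper-layer genes 0 passed and 0 were positive, with a median of -1.41. The medial and septal list had 0 of 11 tested genes called and a median of 0.28. With 2 libraries a group, these values do not show that the levels were alike.

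The condition effect itself was compared between members and other excitatory neurons by an interaction test with the library as a block. Of 15717 genes 11 were higher (0.07%) and 166 lower (1.06%) in members relative to other excitatory neurons at an edgeR adjusted p under 0.05. The count of 177 fell to 51 in members under 3 neocortical UMIs per 10000, to 46 in members under the UMI limit and to 82 and 74 without i4F-Nes or CTR replicate 2. On the lower side Ebf1 had a difference of -3.77 ± 0.27 (SE; edgeR adjusted p = 2.38e-38), but its level in members was 64.7 and 109 CPM against 134 and 86.2 CPM, with overlap. Among other excitatory neurons Ebf1 was at 13.5 and 66.2 CPM (i4F-Nes) and at 3.14 and 2.34 CPM (CTR). The 2 i4F-Nes libraries thus lay far apart, a spread that so small an SE and p-value do not reflect. Ebf2 and Calb1 had the same form, with differences of -4.85 and -3.69. In the other excitatory neurons, barcodes with at least 2 UMIs of Ebf1, Ebf2 and Ebf3 were 3.44% and 7.04% in i4F-Nes and 1.93% and 0.667% in CTR, and their part in these differences was tested only by leaving them out, which left 145 genes called. On the higher side Nnat, an imprinted gene of developing neurons, was at 4099 and 5096 CPM in i4F-Nes members against 3241 and 2500 CPM in CTR members, and at 1040 and 833 against 1252 and 946 CPM in other excitatory neurons (difference 0.94 ± 0.19, edgeR adjusted p = 0.000174). Nr2f2 was at 917 and 805 against 645 and 684 CPM in members, a log2 change of 0.43. In other excitatory neurons it was low, at 0.742 and 0.543 against 1.31 and 0.574 CPM, a log2 change of -0.58. Its difference of 0.91 ± 0.25 (edgeR adjusted p = 0.0359) thus came in part from the other excitatory neurons. For Nnat and Nr2f2 both i4F-Nes member libraries lay above both CTR libraries, and within the members alone neither passed the test.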

How the data were processed

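The authors deposited UMI counts, whole numbers per gene and barcode, 1 matrix per library, made with cellranger 7.0.1 per the file headers. The submitters' processing notes name mm10. Whether introns or strand were counted, or doublets or ambient RNA removed, is not given in the sources used here. Barcodes with at least 1000 UMIs, 500 genes and no more than 10% mitochondrial UMIs were kept, 81.3% of all. Scrublet scores (scanpy 1.11.5) were used in an alternative only, which removed 1655 barcodes at 0.8% per 1000. The members and gene lists were chosen with earlier results of these data known. Cell sets were defined from transcripts, since no cell annotation was used.

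Counts were summed per library and cell set, leaving out the rule's genes from tests, and tested with edgeR 4.0.16 (TMM, filterByExpr, robust quasi-likelihood F-test, Benjamini-Hochberg at 0.05). The alternative tool was DESeq2 1.42.0. On data simulated for members, 200 genes were given 4-fold changes. The edgeR step recovered 86.5% of those that passed its filter on low counts, with 7 false calls among 8743 genes tested. The simulation used 1 common dispersion, so it does not cover genes whose UMIs lie in few barcodes. Shares were compared with exact permutation tests (scipy 1.17.1). Floors of 3 counts and 95% intervals cover counting error only. 3′ UMIs count transcript ends, so CPM were not divided by gene length.

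Genes were named as follows. They were the genes of the rule; in each test, the 10 largest changes per direction with a mean of at least 10 CPM; against other neurons, the 20 genes per direction with at least 50 CPM and the largest lowest-library ratio; and list genes that passed a test, reached 20 CPM in all member libraries or checked the label near 0. Lmx1a, Rspo1, Cdk5r2, Vldlr, Slit1, Lmo3, Plk2, Bcl2 and Phlda3 fell outside that rule and were named after their values were seen. All 131 named genes matched GENCODE M21 on GRCm38. Some genes, and the results that need them, are not reported here. The number of embryos and any pairing of replicates are not given. The planned comparison of members with and without Trp73 was not run, since it needed at least 10 cells on each side in 3 libraries.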

Additional observations from a re-analysis of the deposited data

Results flagged for a closer look

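These 19 genes had a condition effect, log2 of i4F-Nes over CTR, that differed between members and other excitatory neurons in the interaction test with edgeR (adjusted p from 2.38e-38 to 0.0472), and they are among the largest on each side. On the higher side were Grm3 (2.15), Hbb-bs (2.02), Tafa2 (1.30), Mvd (1.11), Fos (1.02), Nnat (0.94), Nr2f2 (0.91), Pdrg1 (0.86) and Adk (0.83). Grm3 and Hbb-bs were at 37.8 and 32.9 CPM in members of i4F-Nes replicate 1 and at 6.60 and 3.30 CPM in replicate 2. In Tafa2, Mvd, Nnat, Nr2f2, Pdrg1 and Adk both i4F-Nes member libraries lay above both CTR member libraries. Mvd, an enzyme of cholesterol synthesis, was at 70.7 and 82.4 CPM against 31.6 and 42.6 CPM. Adk, adenosine kinase, was at 141 and 129 CPM against 77.5 and 69.9 CPM. Fos, an immediate early gene, was at 126 and 46.2 CPM against 115 and 65.5 CPM in members, with overlap.

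On the lower side were Alk (-12.24), G630016G05Rik (-11.11), Mab21l1 (-5.00), Ebf2 (-4.85), Neurog2 (-4.12), Sox6 (-3.89), Boc (-3.83), Ebf1 (-3.77), Eomes (-3.72) and Calb1 (-3.69). Alk and G630016G05Rik had 0 UMIs in the i4F-Nes members and 14.4 and 20.7 CPM and 8.61 and 8.73 CPM in CTR members, so their fitted values depend on the prior count and are no bounds. Mab21l1 was at 34.2 and 36.3 CPM in i4F-Nes members and 47.9 and 30.6 CPM in CTR members, while the other excitatory neurons were at 0.866 and 3.50 against 0.0371 and 0.0683 CPM. Boc, a receptor of hedgehog signalling, was at 1.22 and 0 CPM against 12.4 and 13.1 CPM in members. Over the alternatives the highest adjusted p of these genes ran from 0.00810 for Ebf2 to 1.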

How the results depend on the processing

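The difference in the share of members ran from -0.153 to -0.0308 percentage points of kept barcodes and from -0.0964 to -0.0289 of neurons when 1 library was left out. It turned to 0.0106 of kept barcodes and 0.0684 of neurons under the UMI limit, and of neurons also to 0.0288 without the Krt8 exclusion, 0.0659 after thinning to 5000 UMIs and 0.0385 in members under 3 neocortical UMIs per 10000. The 10 genes called between the groups in members became 0 with Reln of at least 2 UMIs, 5 with at least 5, 64 without the Krt8 exclusion (60 of them higher in i4F-Nes), 4 without high doublet scores, 6 with DESeq2, 64 with no filter on low counts (7 higher), 1 in members under 3 neocortical UMIs per 10000 and 0 under the UMI limit, and 32 to 104 without 1 library (1 to 35 higher). Leaving out 1 library leaves a lone sample in its group, assumed to vary like the others. Without the Krt8 exclusion Sox6 turned to 0.83 and Insm1 to 0.17, and under the UMI limit Tiam2 turned to 0.45 and Pantr1 to 0.26. In other excitatory neurons the 0 became 3 to 117 without 1 library, 73 with DESeq2 (71 higher) and 8 with no filter. The 177 of the interaction became 51 and 46 in those restricted sets, 42 with DESeq2 and 74 to 148 without 1 library, and over the fits that left out 1 library Grm3 ran from -0.62 to 2.96 and Hbb-bs from -1.26 to 2.72, both negative without i4F-Nes replicate 1. With the replicate number as a block 92 genes were called in members (18 higher, 74 lower) and 236 in other excitatory neurons (205 higher, 31 lower); deviations of same-numbered libraries correlated at 0.173 and 0.540, and with 2 pairs the numbers were not taken to pair the samples.

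Against other excitatory neurons 309 genes were higher and 47 lower at 4-fold, and 269 were lower without the Krt8 exclusion, 720 in members under 3 neocortical UMIs per 10000 and 699 under the UMI limit. Against interneurons 247 were higher and 196 lower at 4-fold, and 872 were lower in members under 3. Against Krt8 Ebf cells 422 were higher and 679 lower at 4-fold, 637 lower without the Krt8 exclusion, and without 1 library 1919 to 2284 were lower and 1532 to 1623 higher. Without 1 library the counts were 773 to 859 higher and 465 to 655 lower against other excitatory neurons, and 716 to 799 and 612 to 827 against interneurons. Depth limits these results, since the 4 member sums hold 303200 to 1044743 UMIs and 3 counts are 2.87 to 9.89 CPM.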

Other observations

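Several abundant genes, chosen after their values were seen, also set the members apart from other excitatory neurons in the sums of all 4 libraries. Cntnap2, a cell adhesion protein of the axon, was at 1871 CPM in members and 34.6 CPM in other excitatory neurons. Kcnip4, a potassium channel-interacting protein, was at 1050 and 74.2 CPM, and Lingo2, a transmembrane protein with leucine-rich repeats, at 947 and 25.1 CPM. Pcp4, a calmodulin-binding peptide, was at 1071 and 108 CPM. Each was at least 2-fold higher in all 4 libraries.

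Thsd7b, a thrombospondin-repeat protein, stood at 745 and 561 CPM in i4F-Nes members and 636 and 804 CPM in CTR members, against 2.06 to 8.18 CPM in other excitatory neurons. Cryab, a small heat shock protein better known from glia and lens, was at 198, 290, 130 and 159 CPM against 0.342 to 0.619 CPM, with 0 to 0.937 CPM in interneurons.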
